A study of Homo sapiens with 6 samples.

Results

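The matrix metalloproteinases (MMP), the ADAM and ADAMTS metalloproteinases and their tissue inhibitors (TIMP) were examined in DU145, a human cell line from a prostate carcinoma that grows without androgen. RNA was sequenced from 3 libraries of wild-type cells given the solvent DMSO and 3 libraries of cells given 1 µM CCS1477, both for 24 h. CCS1477 (inobrodib) is a small molecule that occupies the bromodomains of p300 and CBP, acetyltransferases that act as transcriptional coactivators. The labels name no other agent or allele, and whether the 3 replicates of a group came from separate cultures is not stated. All p-values are therefore set by the spread between these libraries, which may be technical. Genes were members if their symbol was MMP, ADAM or ADAMTS followed by digits, or TIMP1 to TIMP4, if their description did not name a pseudogene, and if their counts summed over the 6 libraries to at least 60. This gave 28 genes of the 65 matched by name and of 60623 genes in the table, made up of 7 MMPs, 11 ADAMs, 8 ADAMTS genes and 2 TIMPs. All 28 passed the filter on low counts and were tested among 14928 genes.

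MMPs are zinc proteases that cut collagens, laminins and other matrix proteins, and the membrane-type MMPs do so at the cell surface. ADAMs are anchored in the membrane and release the outer parts of growth factors, cytokine receptors and adhesion molecules, a step called shedding, while a subset has lost the catalytic site and acts in adhesion. ADAMTS proteases are secreted and cut proteoglycans, procollagens and von Willebrand factor. TIMPs bind the active site of MMPs and of some ADAM and ADAMTS proteases, and each TIMP inhibits only part of them. In carcinomas the balance of proteases and inhibitors is known for its part in invasion and in growth factor release.

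A RefSeq start-site window (GRCh38.p14) could be matched for 20 of the 28 genes. The bases upstream of the start are shown for ADAM19, ADAM8, MMP24 and MMP14, which fell, and for MMP15, the nearest relative of MMP14, which did not pass the test. Each sequence reads 5′ to 3′ on the strand of its gene and ends just before the start site of the gene. For MMP14 the start in the deposited files lies 25 bases upstream of the RefSeq start, and its stretch was shortened to 225 bases so that it ends before both. Capitals mark the GC box GGGCGG and the CCAAT box, read on both strands. ADAM19 lies on the minus strand at chr5:157575776-157576025, ADAM8 on the minus strand at chr10:133276869-133277118, MMP24 on the plus strand at chr20:35226440-35226689, MMP14 on the plus strand at chr14:22836335-22836559 and MMP15 on the plus strand at chr16:58025504-58025753.
ADAM19: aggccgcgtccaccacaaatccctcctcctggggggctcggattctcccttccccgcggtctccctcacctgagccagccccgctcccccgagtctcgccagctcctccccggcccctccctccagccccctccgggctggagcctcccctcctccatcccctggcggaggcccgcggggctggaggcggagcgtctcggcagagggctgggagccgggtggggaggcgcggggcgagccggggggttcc
ADAM8: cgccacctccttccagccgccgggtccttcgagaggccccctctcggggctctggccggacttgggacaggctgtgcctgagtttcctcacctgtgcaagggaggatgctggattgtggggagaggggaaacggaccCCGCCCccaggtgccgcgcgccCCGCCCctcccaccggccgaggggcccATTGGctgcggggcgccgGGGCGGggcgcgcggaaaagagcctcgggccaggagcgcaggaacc
MMP24: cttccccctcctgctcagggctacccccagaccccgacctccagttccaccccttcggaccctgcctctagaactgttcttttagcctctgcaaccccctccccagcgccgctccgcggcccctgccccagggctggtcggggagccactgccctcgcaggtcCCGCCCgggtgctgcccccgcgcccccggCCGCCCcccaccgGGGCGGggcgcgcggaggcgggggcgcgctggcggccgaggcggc
MMP14: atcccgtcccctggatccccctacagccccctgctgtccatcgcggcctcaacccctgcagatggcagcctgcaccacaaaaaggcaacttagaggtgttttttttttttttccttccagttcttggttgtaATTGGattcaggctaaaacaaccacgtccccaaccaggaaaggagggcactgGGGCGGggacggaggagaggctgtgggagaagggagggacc
MMP15: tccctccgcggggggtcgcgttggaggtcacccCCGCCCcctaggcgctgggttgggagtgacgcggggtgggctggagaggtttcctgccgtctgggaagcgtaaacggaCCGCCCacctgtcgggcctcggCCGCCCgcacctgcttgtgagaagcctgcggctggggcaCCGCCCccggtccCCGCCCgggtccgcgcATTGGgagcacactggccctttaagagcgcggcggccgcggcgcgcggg

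The share of G and C was 56.4% in the MMP14 stretch and ran from 73.6% to 77.6% in the other 4, against a median of 58% over the first 250 bases of all windows. The stretch of ADAM19 held neither motif, those of ADAM8 and MMP24 held 3 GC boxes each, that of MMP14 held 1, and that of MMP15 held 5. Over the first 250 bases of the windows, GGGCGG or its complement CCGCCC occurred in 17 of the 20 genes and in 42.6% of all 35116 windows. It was present in 5 of the 6 genes that fell, in ADAM15, which rose, and in 11 of the 13 that did not pass. CCAAT or ATTGG occurred in 6 of the 20 genes, 2 that fell and 4 that did not pass, and in 32% of all windows. The AP-1 heptamer TGACTCA or TGAGTCA was in 0 of the 20 genes and in 4.2% of all windows. Read on both strands, the ETS core CCGGAAG was in ADAM17 alone of the 20 and in 8.52% of all windows. The TATA box TATAAA was in ADAMTS10 alone of the 20 and in 10.7% of all windows. Some RefSeq starts lay far from those in the deposited files. The distance was 750 bases for ADAM15, 902 for ADAM17, 4623 for MMP11 and 8009 for ADAMTS13. It was 18519 bases for 1 of the windows of ADAMTS10.

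Library totals ran from 8286883 to 11956748 estimated counts. Summed luminal epithelial markers (KRT8, KRT18, EPCAM and CDH1) ran from 1820 to 2030 CPM in DMSO and from 1670 to 1800 CPM in CCS1477. Of these, CDH1 fell and the others did not pass, and the keratins KRT8 and KRT18 lay between 655 and 856 CPM (counts divided by the TMM-scaled library size, in the usual CPM unit), and the secreted prostate protease gene KLK3 was at 0 counts in all 6 libraries. Summed markers of fibroblasts ran from 14.8 to 21.5 CPM in DMSO and from 14.5 to 17.2 CPM in CCS1477, nearly all of it COL1A1, while COL3A1, DCN and LUM were at 0. Immune markers ran from 42.5 to 51.7 CPM and from 28.3 to 31.9 CPM, nearly all of it CD68, a lysosomal gene also used by other cells, with PTPRC and CD3E at 0. Of the 3 endothelial markers, PECAM1 was at 0 and the sum stayed at or below 0.368 CPM. In bulk RNA, fewer cells of a type and less RNA per cell cannot be told apart.

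DU145 carried few secreted MMPs. Of the 65 family genes, 37 stayed under the count minimum and 17 of these had no count in any library. The gelatinase gene MMP2, the matrilysin gene MMP7, the neutrophil collagenase gene MMP8 and the inhibitor gene TIMP3 were among those at 0, and the other gelatinase, MMP9, had 4 counts in all. A count of 0 allows up to 3 counts in a library, or 0.256 to 0.368 CPM, which covers counting error only. The genes just outside the minimum were the interstitial collagenase MMP1 with 59 counts, ADAMTS9 with 52 and the collagenase MMP13 with 36. Those just inside were ADAMTS10 with 84, MMP25 with 88 and ADAM21 with 95. TIMP4 had 24 counts, of which 17 were in DMSO 2.

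On the per-length scale of TPM (read counts corrected for transcript length and library size), TIMP1 and ADAM9 had the highest levels under DMSO, 226 ± 35.2 and 203 ± 18.3 TPM (SD, n = 3), and the ranges of their libraries overlapped. ADAM10, TIMP2 and ADAM15 followed with 160 ± 2.46, 152 ± 23.1 and 122 ± 23.3 TPM, in that order. The libraries of ADAM10 lay below all those of ADAM9, while ADAM10 overlapped TIMP2 and TIMP2 overlapped ADAM15. MMP14 came next at 50.3 ± 10.6 TPM, then ADAM17 at 41.3 ± 5.03 and MMP15 at 29.8 ± 3.27 TPM. These 8 genes made up all members with a DMSO mean of at least 20 TPM, and MMP17 joined them under CCS1477 at 21.7 ± 6.02 TPM. In 6 of the 27 pairs of neighbours the DMSO libraries did not overlap, and 10 members had a DMSO mean below 2 TPM. Among the secreted proteases the highest level was that of ADAMTS13, which cuts von Willebrand factor, at 7.70 ± 0.453 TPM.

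**Figure D1:**
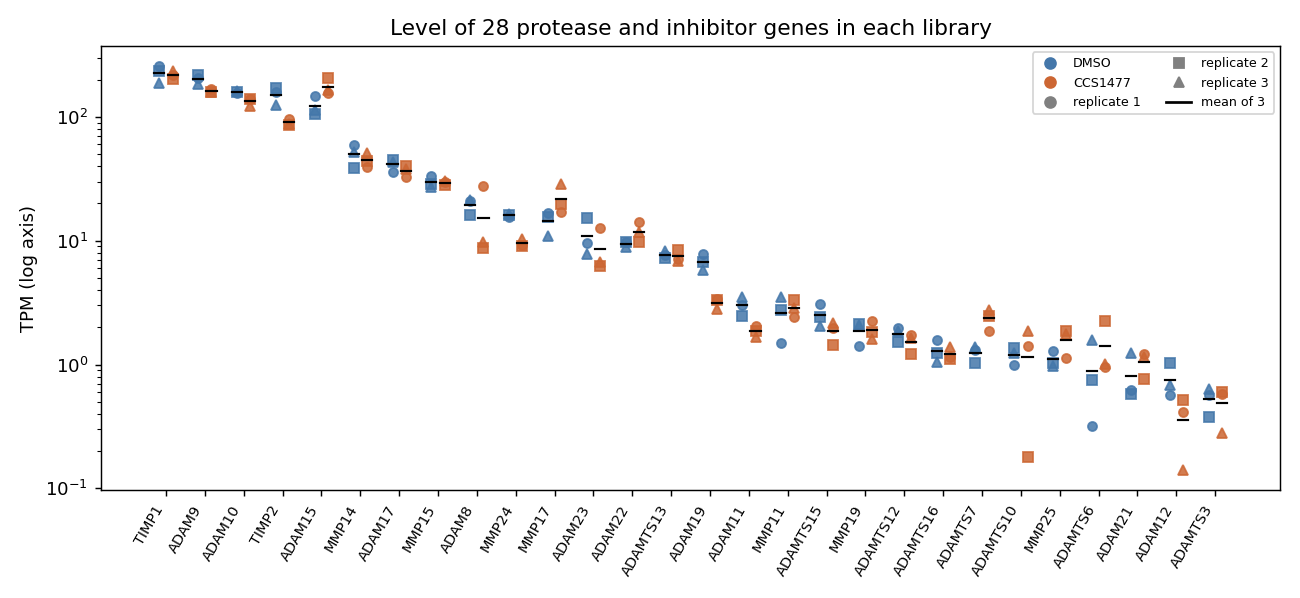
TPM (log axis) of the 28 members in each of the 6 libraries, ordered by DMSO mean. Blue points are DMSO, orange points CCS1477, marker shapes are replicate numbers and black lines are means of 3. TIMP1, ADAM9, ADAM10, TIMP2 and ADAM15 lie above 100 TPM under DMSO, and ADAM8 has 1 CCS1477 library, at 27.6 TPM, above all its DMSO libraries.

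With CCS1477, 9 of the 28 members (32.1%) were lower and 2 (7.14%) were higher in the quasi-likelihood test of edgeR, at an adjusted p (Benjamini-Hochberg, over all genes) under 0.05. Over all 14928 tested genes, 10.7% were lower and 7.23% higher, 17.9% in either direction. The median log2 fold change was -0.17 over the members, against -0.0030 over all tested genes. The falls lay among the ADAMs (6 of 11), the membrane-type MMPs (MMP14 and MMP24 of 5) and TIMP2, and the rises were those of ADAM15 and MMP17. None of the 8 ADAMTS genes passed, although ADAMTS15 and ADAMTS6 had an unadjusted p under 0.05, and neither passed in DESeq2 or limma-voom. CPM values of the groups did not overlap for 11 members that were lower and 4 that were higher, where 19.3% and 16.5% of all tested genes did so. Without CCS1477 2 the calls numbered 5 lower and 1 higher, and without CCS1477 3 they numbered 6 lower and 0 higher. On the log2(TPM + 1) scale, limma called 3 lower (TIMP2, MMP24 and ADAM19) and 0 higher, where it called 427 and 293 of all tested genes.

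**Figure D2:**
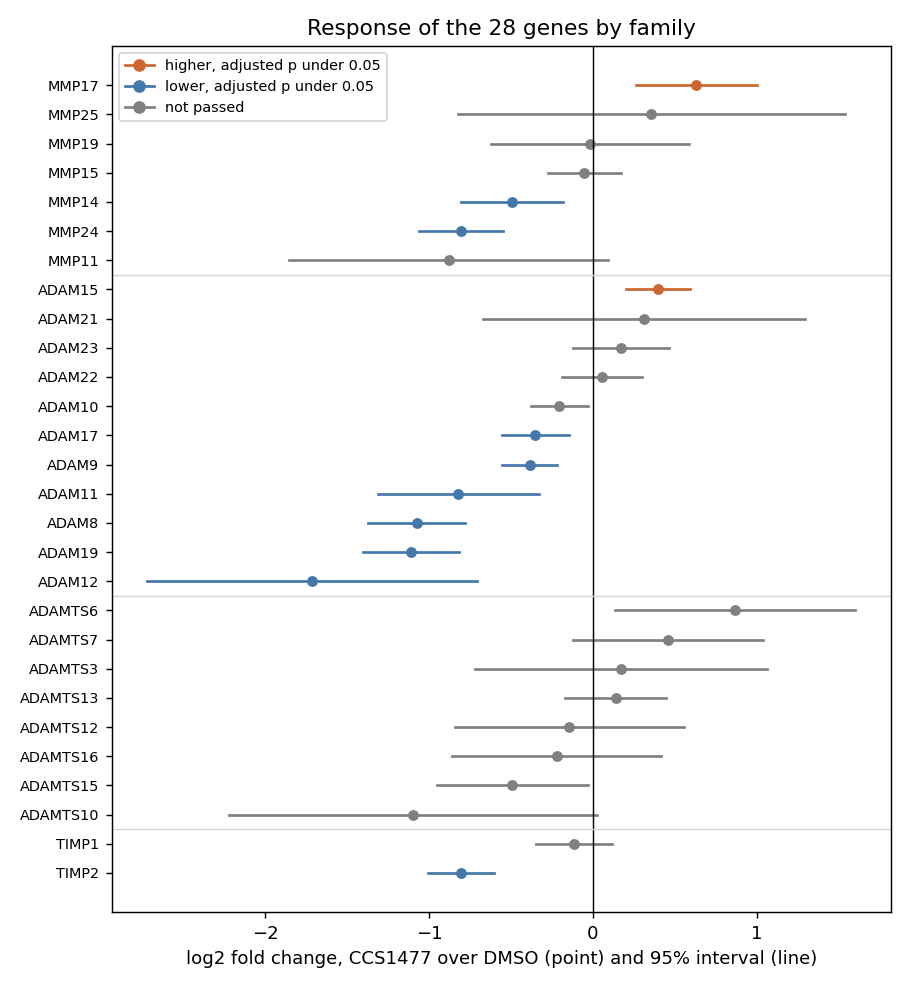
Log2 fold change of CCS1477 over DMSO (point) with its 95% interval (line) for the 28 members, by family. Blue marks the 9 lower genes, orange the 2 higher genes and grey those that did not pass. ADAM12 has the lowest point, at -1.71, with an interval from -2.72 to -0.70.

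Of the membrane-type MMPs, MMP24, known for cutting cadherins in the nervous system, and MMP14, the main activator of pro-MMP2 and a collagenase at the cell surface, fell. MMP24 (chromosome 20, 35226690 to 35276998) had 47.8, 49.8 and 56.9 CPM in the DMSO libraries and 28.1, 28.01 and 32.3 CPM with CCS1477. Every treated library lay well below every control, with means of 51.5 ± 4.75 and 29.5 ± 2.49 CPM (SD, n = 3) and a fold change of -0.80 ± 0.12 on the log2 scale (SE, adjusted p = 0.000773). MMP14 (chromosome 14, 22836560 to 22849027) had 84.2, 69.4 and 91.7 CPM in DMSO and 47.4, 58.2 and 68.5 CPM with CCS1477. The groups just failed to overlap, CCS1477 3 coming close to DMSO 2, and the log2 fold change was -0.49 ± 0.14 (SE, adjusted p = 0.0324). The call of MMP14 ended without DMSO 1, CCS1477 1 or CCS1477 2 (adjusted p = 0.112, 0.121 and 0.102, edgeR), and its TPM values overlapped, with a log2 difference of -0.15 on the log2(TPM + 1) scale. MMP24 overlaps MMP24OS on the other strand, which had 8579 counts in all against 2408 for MMP24 and did not pass (log2 fold change -0.25), and the strandedness of the counting is not given in the sources used here.

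MMP17, which is held in the membrane by a lipid anchor instead of a transmembrane segment, rose. Its CPM values were 14.6, 12.4 and 11.7 in DMSO and 17.5, 18.2 and 24.3 with CCS1477 (chromosome 12, 131828393 to 131851783). All treated libraries lay above all controls, the highest being CCS1477 3, and the change was 0.63 ± 0.17 on the log2 scale (SE, adjusted p = 0.0238). Without CCS1477 3 it was 0.47 (adjusted p = 0.121, edgeR). MMP15, a transmembrane relative of MMP14, had 86.8 ± 9.18 CPM in DMSO and 83.7 ± 4.45 CPM in CCS1477 (SD, n = 3) and did not pass, with a 95% interval of its log2 fold change from -0.27 to 0.17. MMP25, the other lipid-anchored member, was at 1.37 ± 0.823 and 1.70 ± 0.694 CPM, too low to resolve a change within an interval of -0.83 to 1.54. Of the remaining MMPs, the stromelysin-like MMP11 stood at -0.88 (adjusted p = 0.203) and MMP19 at -0.02 (adjusted p = 0.976).

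Of the principal sheddases, ADAM9 and ADAM17 fell and ADAM10 did not pass, with overlapping intervals of the log2 fold change and no test of the difference between these genes. ADAM9 (chromosome 8, 38996869 to 39105261), a broadly expressed sheddase with the highest CPM of all members, had 586, 630 and 583 CPM in DMSO and 466, 451 and 460 CPM with CCS1477. Both groups were tight and well apart, and ADAM9 fell by 0.39 ± 0.08 on the log2 scale (SE, adjusted p = 0.00562). ADAM17, which releases TNF and several EGFR ligands (chromosome 2, 9488486 to 9556732), had 99.4, 115 and 107 CPM in DMSO and 88.2, 85.1 and 78.9 CPM with CCS1477. Its groups did not overlap in CPM either, and the log2 fold change was -0.35 ± 0.09 (SE, adjusted p = 0.0226). ADAM10, the sheddase of Notch receptors and cadherins, had 231, 240 and 231 CPM in DMSO and 212, 201 and 196 CPM with CCS1477. The groups were separate, but the difference of -0.21 ± 0.08 did not pass (SE, adjusted p = 0.0996), with a 95% interval from -0.38 to -0.03. The call of ADAM17 ended without DMSO 2, CCS1477 2 or CCS1477 3 (adjusted p = 0.0700, 0.0877 and 0.110, edgeR). Neither ADAM9 nor ADAM17 passed on the log2(TPM + 1) scale, where they stood at -0.32 and -0.16. The TPM values of ADAM17 overlapped between the groups. ADAM17 overlaps IAH1 on the other strand, which had 2857 counts in all against 5681 for ADAM17 and did not pass (log2 fold change 0.12).

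ADAM15, a catalytic ADAM with an integrin-binding motif, went up. It had 197, 183 and 199 CPM in DMSO and 231, 267 and 263 CPM with CCS1477 (chromosome 1, 155050566 to 155062775). All treated libraries were above all controls on the CPM and the TPM scale, and the change was 0.40 ± 0.09 on the log2 scale (SE, adjusted p = 0.00989). Its call ended without CCS1477 2 or CCS1477 3, at adjusted p = 0.0657 and 0.0569 (edgeR). On the TPM scale ADAM15 went from 122 to 176 ± 27.6 TPM, a difference that did not pass in limma on log2(TPM + 1) (adjusted p = 0.103). Under CCS1477 its libraries overlapped those of ADAM9 (162 ± 4.24 TPM).

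The larger falls were in ADAMs of lower level. ADAM19, a protease that processes neuregulin (chromosome 5, 157395534 to 157575775), had 34.4, 29.8 and 29.2 CPM in DMSO and 15.5, 14.5 and 13.3 CPM with CCS1477. It was 2.16-fold lower, and the change was -1.11 ± 0.13 on the log2 scale (SE, adjusted p = 0.000200). ADAM8, a sheddase of leukocytes and tumour cells (chromosome 10, 133262420 to 133276868), had 46.3, 35.2 and 45.4 CPM in DMSO and 20.4, 18.6 and 21.0 CPM with CCS1477. All treated libraries lay below all controls, and the log2 fold change was -1.08 ± 0.14 (SE, adjusted p = 0.000307). ADAM12, which cleaves HB-EGF and IGF-binding proteins (chromosome 10, 126012381 to 126388455), was scarce, with 3.33, 1.88 and 4.42 CPM in DMSO and 1.46, 0.625 and 0.800 CPM with CCS1477. The groups were apart on few reads (39, 22 and 36 counts against 13, 6 and 7), and the log2 fold change was -1.71 ± 0.46 (SE, adjusted p = 0.0242). The call of ADAM12 ended without DMSO 1, DMSO 3, CCS1477 2 or CCS1477 3 (adjusted p = 0.0816, 0.0664, 0.106 and 0.0933, edgeR). ADAM19 overlaps CYFIP2 on the other strand, which rose with a log2 fold change of 1.07, and NIPAL4, with 87 counts, which fell by 1.63 on the log2 scale.

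Of the 3 ADAMs without a catalytic site, ADAM11 fell and the synaptic LGI receptors ADAM22 and ADAM23 did not pass. ADAM11 (chromosome 17, 44758988 to 44781846) had 9.89, 7.95 and 12.9 CPM in DMSO and 6.28, 6.04 and 4.91 CPM with CCS1477. The groups were separate, and the change was -0.82 ± 0.23 on the log2 scale (SE, adjusted p = 0.0262). Without any 1 library other than DMSO 2 the call was lost, at adjusted p = 0.0524 to 0.1 in edgeR. ADAM22 had 35.1 ± 0.926 and 36.5 ± 3.09 CPM and ADAM23 had 17.8 ± 1.12 and 20.04 ± 1.495 CPM in DMSO and CCS1477 (SD, n = 3), with 95% intervals of the log2 fold change from -0.19 to 0.30 and from -0.12 to 0.47. ADAM21 stood at 0.31 with 95 counts in all.

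**Figure D3:**
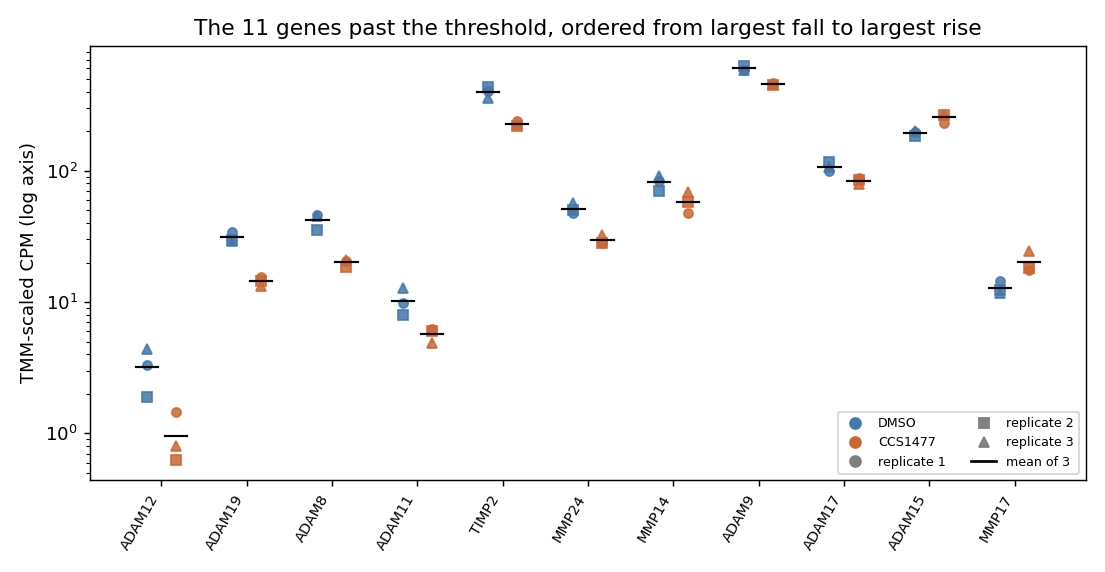
TMM-scaled CPM (log axis) of the 11 members past the threshold in each library, from the largest fall, ADAM12, to the largest rise, MMP17. Blue points are DMSO, orange points CCS1477, marker shapes are replicate numbers and black lines are means of 3. In each of the 11 genes the groups do not overlap, and on this log axis the narrowest gap is that of MMP14 (68.5 against 69.4 CPM).

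Among the inhibitors, TIMP2 fell and TIMP1 did not pass. TIMP2, which inhibits MMPs and also bridges MMP14 to pro-MMP2 (chromosome 17, 78852977 to 78925387), had 403, 431 and 357 CPM in DMSO and 239, 218 and 226 CPM with CCS1477. All treated libraries lay far below all controls, 1.75-fold on average, and the change was -0.80 ± 0.09 on the log2 scale (SE, adjusted p = 0.000146). This call and those of MMP24 and ADAM19 held in each of the 15 alternative analyses run. TIMP1 had 97.5, 83.7 and 81.3 CPM in DMSO and 80.3, 73.5 and 88.8 CPM with CCS1477, with overlapping groups and a 95% interval of the log2 fold change from -0.35 to 0.12. On the TPM scale TIMP1 and TIMP2 summed to 378 ± 55.7 in DMSO and 309 ± 18.6 in CCS1477, and the 7 MMPs to 116 ± 12.6 and 112 ± 13.1 (SD, n = 3, no test). In both sums the libraries of the groups overlapped, with a TIMP sum of 314 TPM in DMSO 3 against 324 TPM in CCS1477 3. A gene without a symbol that overlaps TIMP2 on the other strand, with 774 counts against 18876 for TIMP2, stood at -0.85 (adjusted p = 0.00588, edgeR).

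ADAMTS transcripts were scarce and none passed. ADAMTS15, which cuts the proteoglycans aggrecan and versican, had 12.5, 9.75 and 9.33 CPM in DMSO and 7.85, 5.83 and 8.91 CPM with CCS1477. The groups were separate, and the change was -0.49 ± 0.21 on the log2 scale (SE, adjusted p = 0.134). ADAMTS6, a relative of the fibrillin-binding ADAMTS10, had 1.45, 1.80 and 1.35 CPM in DMSO and 2.81, 2.92 and 2.74 CPM with CCS1477. These were 11 to 21 counts against 24 to 28, and the log2 fold change was 0.87 ± 0.34 (SE, adjusted p = 0.0979). ADAMTS13 was the most abundant ADAMTS gene, at 17.4 ± 1.81 and 19.2 ± 1.47 CPM (SD, n = 3), with a 95% interval of the log2 fold change from -0.17 to 0.45. ADAMTS7 and ADAMTS12, which cut cartilage oligomeric matrix protein, stood at 0.46 and -0.14 (adjusted p = 0.271 and 0.805, edgeR). The others were ADAMTS3, a procollagen peptidase, at 0.17, ADAMTS16 at -0.22 and ADAMTS10 at -1.10, whose interval from -2.22 to 0.03 shows how little its 84 counts can resolve.

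The count and TPM scales did not give the same picture for every member. Dividing a gene's count by its TPM gives a quantity proportional to the transcript length the authors' quantification assigned to it, here taken relative to the median gene of the library. For TIMP2, MMP24, ADAM9 and ADAM19 this length differed between the group means by at most 0.05 on the log2 scale. For ADAM8 it was 0.52, 0.54 and 0.30 in DMSO and 0.50 and 0.48 in CCS1477 2 and 3, but -1.02 in CCS1477 1. That library had 27.6 TPM of ADAM8 against 8.69 and 9.78 TPM in the other treated libraries, although its CPM of 20.4 was close to theirs. MMP14 was shorter by 0.29 and ADAMTS7 by 0.44, both with no overlap between groups. For MMP14, the mean TPM went from 50.3 to 44.9 ± 5.72 while the mean CPM went from 81.8 to 58.0. MMP11 was shorter by 1.05 and had a log2 ratio of mean TPM of 0.15 against -0.91 for CPM. Of 13002 genes with at least 10 counts and 1 TPM in every library, 2.06% differed by more than 0.5, as did 2 of the 22 members among them (MMP11 and ADAM23). Groups did not overlap in this length for 12.5% of these genes and for 3 of the 22 members (MMP11, ADAMTS7 and MMP14).

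**Figure D4:**
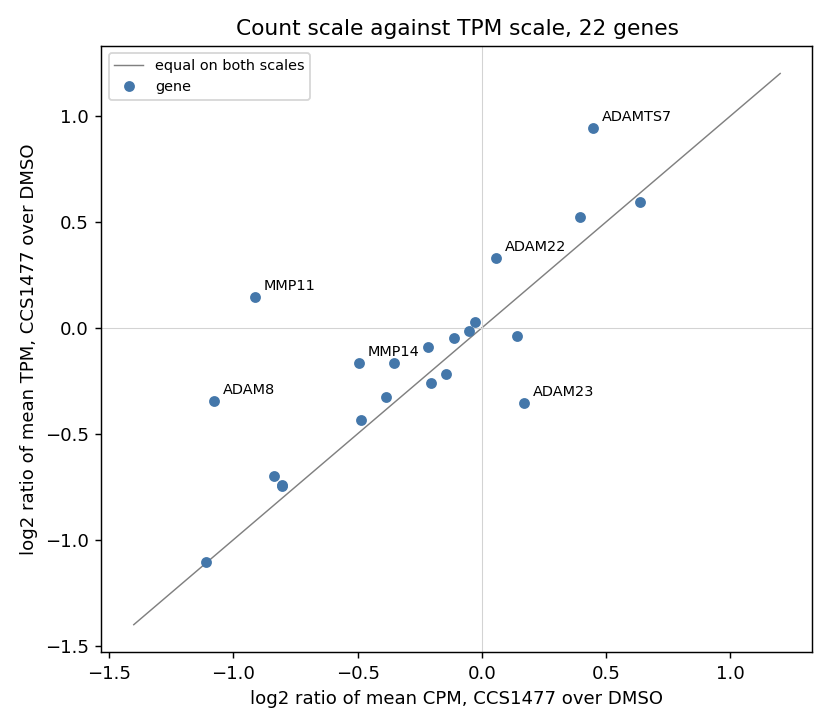
Log2 ratio of group means, CCS1477 over DMSO, on the TPM scale against the CPM scale for the 22 members with at least 10 counts and 1 TPM in every library. The grey line marks equal ratios. ADAM8 lies at -1.08 in CPM and -0.34 in TPM, and MMP11 at -0.91 and 0.15.

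Genes that activate, position or clear these proteases changed in both directions, 5 lower (26.3%) and 2 higher (10.5%) of 19 tested. Over all tested genes 10.7% were lower and 7.23% higher. The median log2 fold change of this list was -0.11. PLAU, the urokinase that starts plasmin formation, fell from 936 ± 43.4 to 566 ± 16.7 CPM. LRP1, the receptor that clears MMPs, ADAMTS proteases and TIMPs, fell from 228 ± 32.9 to 123 ± 13.1 CPM, and the proprotein convertase PCSK6 fell by 0.86 on the log2 scale (SD, n = 3). The remaining falls, TSPAN15 at -0.51 and TSPAN14 at -0.41, were those of tetraspanins that accompany ADAM10, named here after their values were seen. The other tetraspanins of the list, TSPAN5, TSPAN10, TSPAN17 and TSPAN33, did not pass (-0.30, -0.50, -0.11 and 0.15). RHBDF1, the gene of the ADAM17 partner iRhom1, rose at 0.61 and the serine protease inhibitor gene TFPI2 at 0.45. The convertase FURIN, which removes the propeptide of most ADAMs and membrane-type MMPs, the MMP inhibitor gene RECK and the MMP inducer gene BSG did not pass (-0.25, 0.09 and -0.08, also named after their values were seen). The lower genes of this list numbered 3 without CCS1477 1 or CCS1477 3, and the higher genes 1 without DMSO 1, CCS1477 2 or CCS1477 3.

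Of 9 tested genes for other secreted metalloproteinases and ADAMTS-like proteins, 4 fell (44.4%) and 1 rose (11.1%), against 10.7% and 7.23% of all tested genes. PAPPA, which cuts IGF-binding proteins, fell from 10.4 ± 1.57 to 1.63 ± 0.419 CPM, and BMP1, the procollagen C-proteinase, from 72.2 ± 1.57 to 41.0 ± 4.68 CPM (SD, n = 3). The microfibril-associated ADAMTSL4 and THSD4 fell with log2 fold changes of -1.23 and -0.82, and PAPLN, a secreted ADAMTS-like protein, rose at 0.43. The rise of PAPLN did not pass without DMSO 1, DMSO 3, CCS1477 1 or CCS1477 2 (adjusted p = 0.130, 0.0572, 0.125 and 0.166, edgeR).

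Of 32 tested genes for proteins cleaved by ADAM10 or ADAM17, 17 (53.1%) were lower and 1 (3.12%) higher in RNA. The median log2 fold change was -0.37. Over all tested genes the shares were 10.7% and 7.23%. LRP1 is in this list and among the protease control genes, and its fall is counted in both. The list was written with earlier results of these data known, and the falls of its leading genes were among those results, so the count is not independent evidence of a direction. Of the EGFR ligands, EREG fell from 258 ± 13.6 to 66.7 ± 8.46 CPM and AREG from 236 ± 24.8 to 118 ± 6.04 CPM, and the scarcer BTC and EGF fell as well, BTC at -0.84 (adjusted p = 0.0155) and EGF at -0.85 on the log2 scale (adjusted p = 0.0498, edgeR). The other EGFR ligands of the list, HBEGF and TGFA, stood at 0.07 and -0.25 and did not pass. BTC, EGF, HBEGF and TGFA were named after their values were seen. The syndecan SDC1 and the cadherin CDH1 fell with log2 fold changes of -1.16 and -1.17, and the adhesion molecule L1CAM rose from 7.30 ± 1.33 to 14.5 ± 2.76 CPM (SD, n = 3). On the log2(TPM + 1) scale limma called 6 of the 32 lower. Of 14 tested genes for matrix proteins cut by ADAMTS proteases and MMPs, 8 were lower (57.1%) and 1 higher (7.14%). Their median log2 fold change was -0.36. TNC fell from 166 ± 11.1 to 31.1 ± 0.837 CPM, and the fibulin gene EFEMP1 and the laminin chain gene LAMA3 fell with log2 fold changes of -0.96 and -0.45. FBN1 rose from 2.91 ± 0.887 to 5.75 ± 1.43 CPM, a call lost without any 1 library other than DMSO 2, in limma-voom (adjusted p = 0.0509) and on the log2(TPM + 1) scale, where FBN1 stood at 0.09 (adjusted p = 0.899). The lower genes numbered 5 without DMSO 1 or any 1 CCS1477 library, and 2 on the log2(TPM + 1) scale. Of the 30 genes listed, 16 were too low to test, among them ACAN and VCAN, the proteoglycans cut by ADAMTS15.

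Among AP-1, ETS and RUNX transcription factors, families known to act on MMP promoters, 4 of 19 tested were higher (21.1%) and 3 lower (15.8%). Over all tested genes the shares were 7.23% and 10.7%. The median of these factors was 0.05. ETS2 fell from 145 ± 9.20 to 78.3 ± 4.41 CPM and ETS1 from 97.0 ± 3.20 to 63.5 ± 1.13 CPM, and the AP-1 subunit FOSL2 fell by 0.66 on the log2 scale. The ETS factor ETV5 rose from 96.5 ± 2.13 to 138 ± 4.20 CPM (SD, n = 3), and JUN and JUND rose at 0.47 and 0.53, as did JUNB at 0.42, named after its value was seen. The higher genes numbered 2 without DMSO 1 or DMSO 2 and 1 without CCS1477 2 or CCS1477 3. On the log2(TPM + 1) scale limma called 2 of these factors lower and 0 higher, and it called 1 lower and 0 higher of the protease control genes and 2 lower and 0 higher of the other secreted metalloproteinases and ADAMTS-like proteins.

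**Figure D5:**
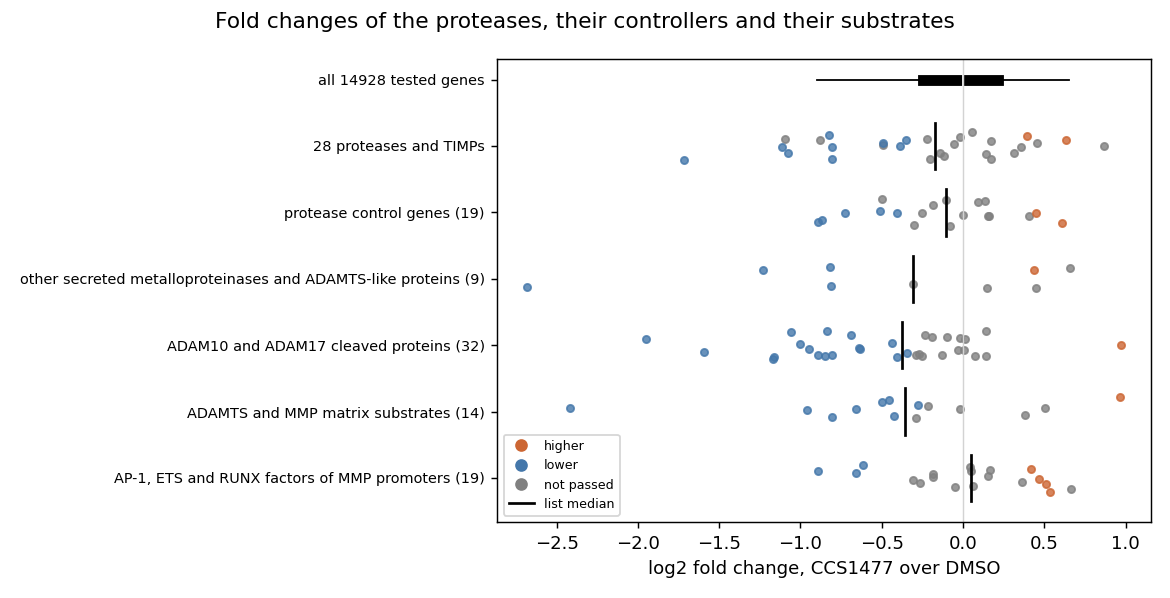
Log2 fold change, CCS1477 over DMSO, of the 28 members and of the tested genes of 5 related lists (numbers tested in brackets). Points are genes, blue lower, orange higher and grey not passed, black ticks are list medians, and the bar on top spans the 25th to 75th and its line the 5th to 95th percentile of all 14928 tested genes. The medians are -0.17 for the members, -0.37 for the genes of the cleaved proteins and 0.05 for those of the transcription factors.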

How the data were processed

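Poly-A RNA of 6 DU145 libraries was sequenced. The authors deposited a table of estimated counts per gene and a table of TPM, which is scaled to the same sum in each library. The submitters' processing notes name Trimmomatic 0.39, and for the aligner, quantifier, genome build and strandedness nothing is given in the sources used here. Between 10.2% and 10.7% of the nonzero deposited estimated counts of a library were not whole, and they were rounded. Coordinates are those of the deposited files.

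Genes were filtered with filterByExpr (minimum count 10, minimum total 15), scaled by TMM and tested with edgeR 4.0.16 (quasi-likelihood, no covariates, Benjamini-Hochberg over all genes, threshold 0.05) in R 4.3.3. Standard errors and 95% intervals came from the test statistic. Alternatives used DESeq2 1.42.0, limma 3.58.1, other scaling, filters and the TPM scale. Replicate pairs of a group differed by 3.21 to 19.1 times the counting noise (chi-square per degree of freedom). When tested on simulated data made from these libraries (14928 genes, DMSO against CCS1477), 50.6% of 1.5-fold and 78.8% of 2-fold changes were recovered, with 3.39% false calls. The simulation changed far fewer genes than were called in the data. It also set the spread of each gene by a common trend with expression level, so these rates may differ from those of the data. 

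The members, gene lists and tests were chosen with earlier results of these data known. All members past the threshold, those of at least 20 TPM in a group mean, those nearest the count minimum, the TIMPs, ADAM10, ADAM17, MMP2, MMP9 and MMP14 were to be named, with, from each list, up to 4 genes of smallest adjusted p past the threshold and 2 of opposite sign. Others of the 28 were added for completeness. A gene of 1 list that met this rule and a marker gene are not reported here. Promoter sequences are from RefSeq. Plots used matplotlib 3.10.9.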

Additional observations from a re-analysis of the deposited data

How the results depend on the processing

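The member counts of 9 lower and 2 higher did not change with RLE scaling, scaling by library size alone, DESeq2, limma-voom, no filter, or a member minimum of 30 or 120 summed counts. They were 8 and 2 with a minimum count of 30, where only 19 members were tested and ADAM12 was filtered out. With the replicate block, where all 28 were tested, they were also 8 and 2. With limma on TPM they were 3 and 0 with either pseudocount (1 or 0.1), and the counts over all tested genes were 427 lower and 293 higher, and 410 and 280. Leaving out 1 library in turn gave 5 to 8 lower and 0 to 2 higher members, and 925 to 1772 lower and 487 to 1311 higher genes in all. Scaling by library size alone gave 1361 lower and 1456 higher genes, against 1597 and 1079 with TMM.

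Reversals of direction were seen only in members that did not pass. With limma on TPM and a pseudocount of 1 or 0.1, MMP11 stood at 0.14 and 0.21, ADAM23 at -0.33 and -0.37, ADAMTS3 at -0.045 and -0.13 and ADAMTS13 at -0.038 and -0.043. MMP19 stood at 0.022 and 0.036 there, at 0.031 with scaling by library size alone and at 0.021 in limma-voom. With 1 library left out, MMP25 ranged from -0.082 to 0.67, MMP15 from -0.12 to 0.032, MMP19 from -0.20 to 0.10, ADAMTS12 from -0.31 to 0.033 and ADAMTS3 from -0.11 to 0.41. The cause of these changes was not tested.

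The labels do not say whether a replicate number pairs libraries. Same-numbered libraries deviated from their group means with correlations of -0.09, -0.20 and -0.01. With 3 libraries in a group, these values cannot settle whether the libraries were prepared in pairs. The replicate block gave 1306 lower and 799 higher genes, and among the named genes it ended the calls of ADAM17, TFPI2, PAPLN and FBN1 (adjusted p = 0.0516, 0.0539, 0.0706 and 0.0725, edgeR). Depth limits the members with both group means under 5 CPM, whose log2 fold changes had standard errors of 0.28 or more.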

Other observations

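Several members that did not pass share their locus with a gene on the other strand that has more counts. MMP25, with 88 counts in all, overlaps MMP25-AS1, which had 1054 counts and rose with a log2 fold change of 0.65 (adjusted p = 0.00616, edgeR). MMP11, with 164 counts, overlaps CHCHD10, which had 3031 counts and a log2 fold change of -0.10, and MMP19, with 248 counts, overlaps TMEM198B, which had 1822 counts and stood at 0.41 (adjusted p = 0.0667, edgeR). ADAMTS7, with 333 counts, overlaps MORF4L1, which had 13836 counts and stood at 0.07. ADAMTS13, with 1077 counts, overlaps REXO4, which had 3104 counts and stood at 0.02. Without the strandedness of the counting, reads of such pairs cannot be told apart, and how many were exchanged was not tested.

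The 28 members were uneven in what they contributed. The 11 ADAMs together went from 1275 ± 18.5 CPM in DMSO to 1099 ± 6.16 CPM in CCS1477, the 7 MMPs from 242 ± 22.5 to 199 ± 19.97 CPM, the 2 TIMPs from 485 ± 40.4 to 308 ± 15.2 CPM and the 8 ADAMTS genes from 44.7 ± 1.203 to 44.9 ± 3.70 CPM (SD, n = 3, no test). ADAM9 alone held 600 ± 26.2 of the ADAM sum in DMSO and 459 ± 7.48 in CCS1477. CPM is not corrected for transcript length, so long transcripts weigh more in these sums. On the TPM scale the ADAM sum was 577 ± 24.3 in DMSO and 550.5 ± 31.3 in CCS1477, and the libraries overlapped. ADAM9 held 203 ± 18.3 and 162 ± 4.24 TPM of it (SD, n = 3, no test).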
